A study of Mus musculus with 8 samples.

Results

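The 10 genes described here serve the assembly, storage and breakdown of triglyceride in liver. They are Gpam, Agpat2, Lpin1, Lpin2, Dgat1 and Dgat2 of the synthetic pathway, the lipase genes Pnpla2 and Pnpla3, and the lipid droplet coat genes Plin2 and Plin5. They were taken as the rows of the deposited array table whose probe annotation gives 1 of these symbols alone. All 10 of 10 were found, with 22 probes among them, of 19532 named genes and 41174 probes in all. No filter on low values was applied, so every member entered the tests.

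The series compared liver RNA of 4 mper2brdm1 mutant mice with that of 4 WT mice, 1 array per mouse. Both genotypes had a mixed 129sv and C57Bl/6 background, came from 1 cohort and had been starved for 8 h. Brdm1 is a germline allele of Per2 that lacks part of the coding sequence, carried by every cell of the animal and not by the liver alone. Age, sex and the time of day at death are not given in the sources used here. Per2, a repressor of the circadian clock, had probes that went opposite ways. Probe A_51_P282760 read -0.84 to -0.74 in mutants and 0.70 to 1.13 in wild type, and probe A_52_P536869 read 1.09 to 1.52 in mutants and -1.37 to -1.10 in wild type. The positions of these probes relative to the deletion were not analysed here, so neither is a check of the genotype on its own.

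Hepatocytes join fatty acids to glycerol phosphate in a fixed order of steps at the endoplasmic reticulum. Acyltransferases add the first acyl chains, lipin phosphatases remove the phosphate, and diacylglycerol acyltransferases add the last chain. The triglyceride is kept in droplets coated with perilipins, and in fasting it is broken down again by lipases to feed fatty acid oxidation and ketone production. Several of these genes are known to follow insulin, fasting and the daily feeding cycle.

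The values are relative. Every probe has a median of 0 across the mice, so the data give differences between mice and no levels, and genes cannot be set against each other by level. The log base was taken as 2 and higher values as brighter signal, since neither was stated, and all fold changes depend on this. A difference is the mutant mean minus that of wild type in log2 units, with its standard error from limma. The threshold was an adjusted p of 0.05 (Benjamini-Hochberg, 28042 rows). In whole liver, fewer cells of a type and less RNA per cell cannot be told apart.

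Among the 10 members, 2 rose and 1 fell in the mutants, and 7 did not pass. Plin5 and Pnpla2, whose proteins bind each other, were higher, and Dgat2, of the last step of synthesis, was lower. Over all rows 15.5% passed, 6.52% as higher and 8.93% as lower, and over named genes 17.6%, 7.13% and 10.5%. The mutant and wild-type values did not overlap for 5 members, Plin5 and Pnpla2 on the high side and Dgat2, Dgat1 and Gpam on the low side, against 24.6% of all rows. The median difference was 0.21 over the members, 0.0088 over named genes and 0.08 over all rows. The member median counts Lpin2 at 0.47, a value that rested on 1 of its 5 probes. Without that probe Lpin2 was at 0.02, so the member median would be lower. The scaling between arrays ran with genotype. The median of all rows was 0.08 after scaling and 0.20 with the values as deposited, and 42.2% of calls were higher after scaling and 61.4% as deposited. Without wild-type mice 2 and 3, whose control features were lower (medians of -0.66 and -0.43 against -0.04 to 0.13 on the other arrays), Plin5 was the 1 member that passed. That fit also had fewer mice. Without wild-type mouse 3 alone, calls over all rows fell from 4333 to 2884. The part of these array differences in the results was not tested, nor was that of the number of mice.

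**Figure D1:**
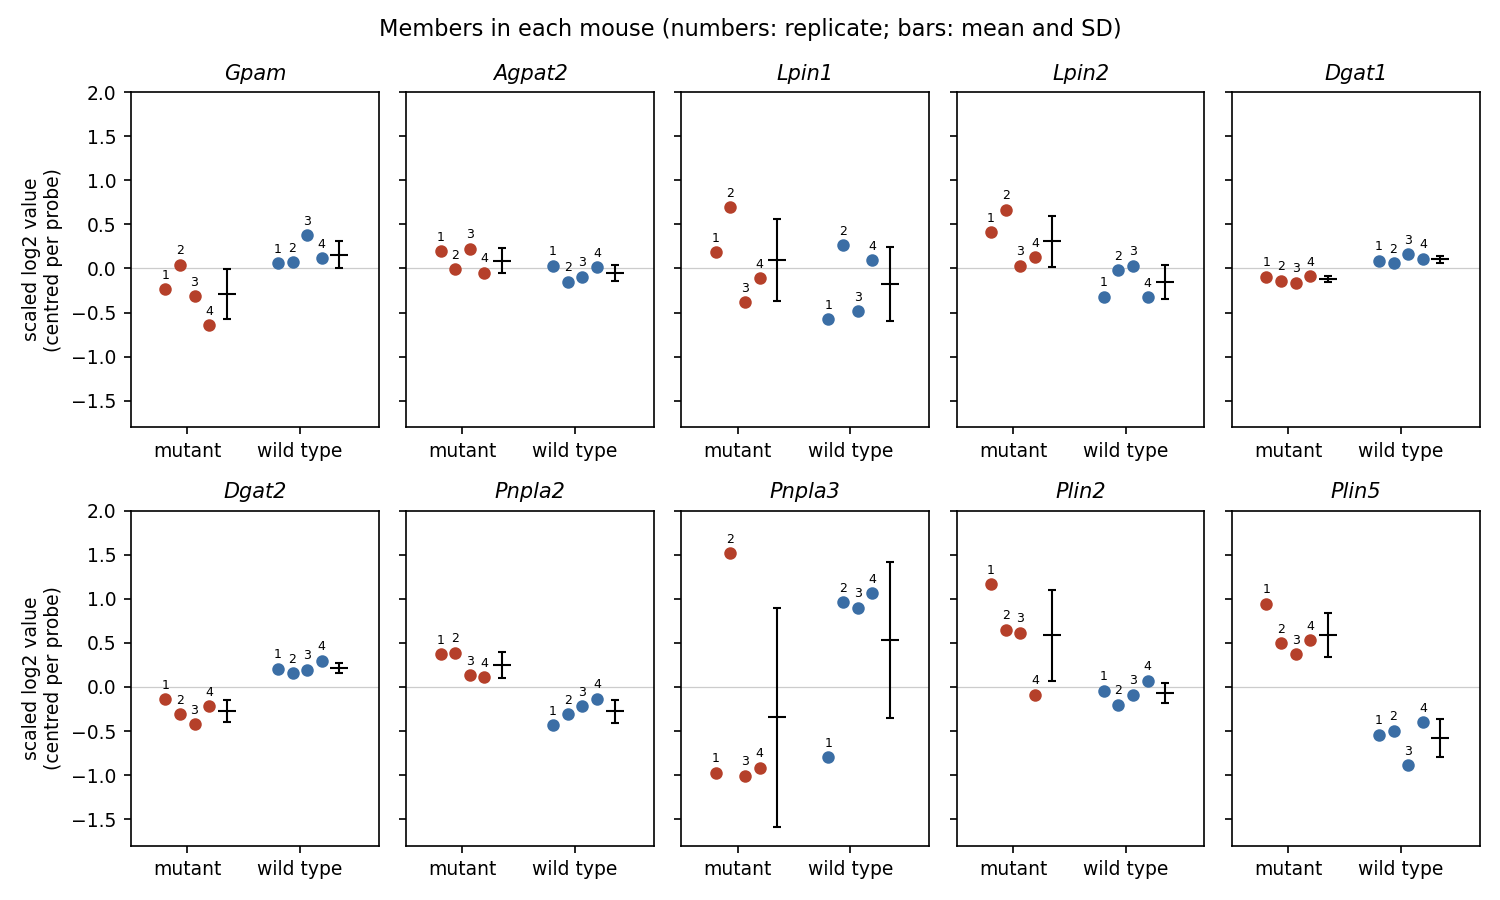
Scaled log2 values of the 10 members in each mouse, mutant on the left and wild type on the right of each panel, with the replicate number above each point and the mean and SD (n = 4) beside it. Plin5, Pnpla2 and Dgat2, which passed, and Dgat1 and Gpam, which did not, separate the genotypes without overlap. Pnpla3 splits the mice within both genotypes.

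Synthesis begins with the glycerol-3-phosphate acyltransferases. Gpam, which encodes the mitochondrial form of this enzyme, read -0.23, 0.04, -0.32 and -0.64 in mutant mice 1 to 4 and 0.06, 0.07, 0.38 and 0.11 in wild-type mice 1 to 4. Every mutant value lay below every wild-type value, but mutant mouse 2 lay close to the lowest wild-type mouse. The difference of -0.44 ± 0.16 did not pass (limma, adjusted p = 0.111). Agpat2, which encodes the acyltransferase of the second step, read 0.19, -0.01, 0.22 and -0.05 in mutants and 0.03, -0.15, -0.10 and 0.01 in wild type. The groups overlapped, and the difference of 0.14 ± 0.11 did not pass (limma, adjusted p = 0.363). It was 0.26 with the values as deposited and 0.07 without wild-type mice 2 and 3. Its probes A_51_P238563 and A_51_P238565 gave 0.19 and 0.09, and neither passed.

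The lipins remove phosphate from phosphatidic acid to give diacylglycerol, and Lpin1 is also known as a coactivator of fatty acid oxidation genes. Lpin1 read 0.18, 0.69, -0.39 and -0.11 in mutants and -0.58, 0.26, -0.48 and 0.09 in wild type. Its 4 probes followed each other from mouse to mouse, so the spread within each genotype was shared by all probes. Mutant mouse 2 was highest on all 4 of them, and wild-type mouse 1 was lowest. The difference of 0.27 ± 0.29 did not pass (limma, adjusted p = 0.511). Its size rested on single mice, at 0.07 without mutant mouse 2, 0.14 without wild-type mouse 1 and 0.17 without wild-type mouse 3. It was 0.43 without mutant mouse 3 and 0.42 without wild-type mouse 2.

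Lpin2, which encodes a lipin abundant in liver, read 0.41, 0.66, 0.03 and 0.12 in mutants and -0.32, -0.02, 0.03 and -0.33 in wild type as the mean of 5 probes. The difference of 0.47 ± 0.17 did not pass (limma, adjusted p = 0.115), and it rested on 1 probe. Probe A_52_P397786 read 1.34, 1.35, 0.52 and 2.58 in mutants and -0.77, -0.81, -0.55 and -1.04 in wild type, a difference of 2.24 ± 0.39 (limma per probe, adjusted p = 0.00862). The other probes gave -0.15 to 0.21 and none passed. Averaged without that probe, a choice made after seeing the data, Lpin2 differed by 0.02 ± 0.22 (limma, adjusted p = 0.950). Where each probe lies in the transcripts of Lpin2 was not analysed here.

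**Figure D2:**
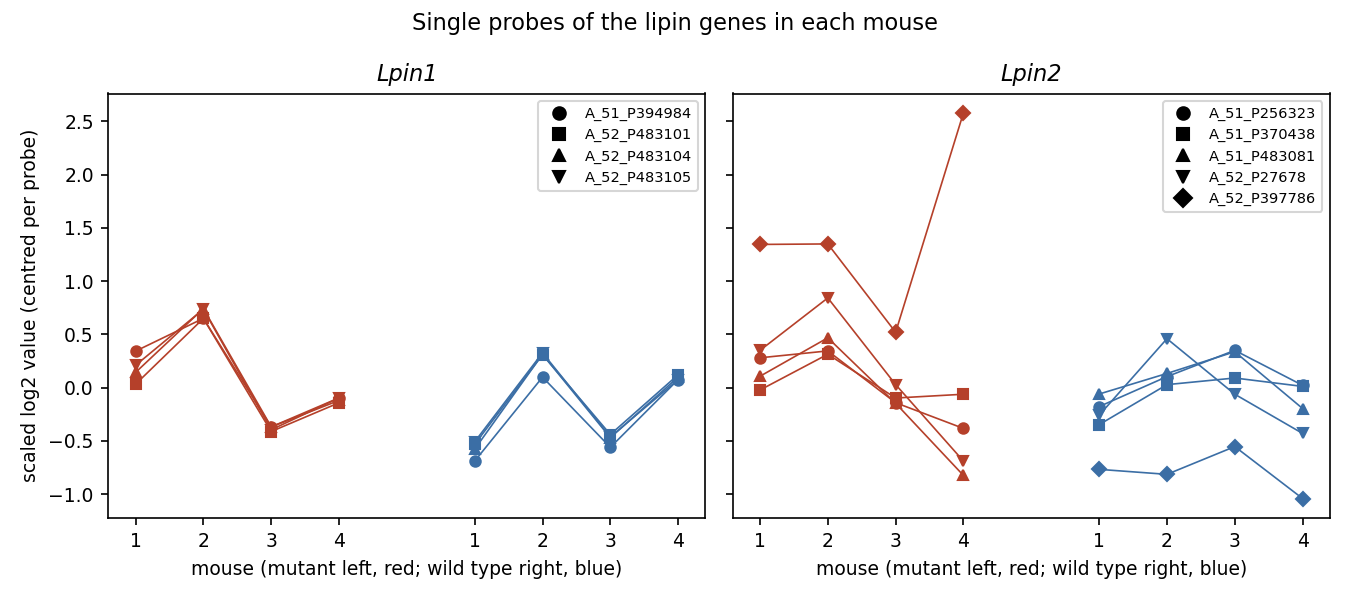
Scaled log2 values of the 4 Lpin1 probes (left) and the 5 Lpin2 probes (right) in each mouse, mutant in red and wild type in blue; lines join the mice of 1 genotype on 1 probe and imply no order. The Lpin1 probes coincide, while Lpin2 probe A_52_P397786 alone separates the genotypes, at 0.52 to 2.58 in mutants and -1.04 to -0.55 in wild type.

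Of 12 RefSeq promoters of the members, 1 of those of Lpin2 held a CACGTG, the E-box sequence recognised by the clock factors CLOCK and BMAL1, in the 250 bases before the start of transcription. It is shown because the clock is the altered system here. The match, in capitals, lies 9 to 4 bases before the start, at the 3′ end of the window chr17:71183282-71183531 on the plus strand of GRCm38.p6.
Lpin2: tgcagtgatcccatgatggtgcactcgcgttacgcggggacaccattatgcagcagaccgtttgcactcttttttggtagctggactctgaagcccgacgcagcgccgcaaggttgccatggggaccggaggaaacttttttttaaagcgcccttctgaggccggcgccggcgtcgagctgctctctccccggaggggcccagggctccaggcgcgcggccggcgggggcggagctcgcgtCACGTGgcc
An E-box was present in 6.02% of all 32851 promoters of the same length, and its presence says nothing about binding. RefSeq promoters were found for 8 of the 10 members (Dgat1 and Dgat2 were not among them). Searched on both strands, the D-box forms TTATGTAA, TTACGTAA and TTATGCAA were in 0 of the 12 promoters and in 1.61% of all. The sterol element TCACNCCAC was in 0 of 12 and in 1.05% of all. The direct repeat DR1, AGGTCA with 1 base before a second AGGTCA, was in 0 of 12 and in 0.0335% of all.

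The last step of synthesis is shared by the unrelated enzymes of Dgat1 and Dgat2, of which DGAT2 is known to draw on newly made fatty acids. Dgat2 read -0.14, -0.31, -0.42 and -0.22 in mutants and 0.21, 0.16, 0.19 and 0.30 in wild type. All 4 mutants lay below all 4 wild-type mice, and the gene fell by 0.49 ± 0.10 (1.40-fold, limma adjusted p = 0.0170). Each of its 3 probes passed alone, with differences of -0.47, -0.55 and -0.44 (limma per probe, adjusted p = 0.0203, 0.0112 and 0.0235), where 16.3% of all probes passed. Dgat2 no longer passed with the values as deposited (-0.37, adjusted p = 0.0536), without wild-type mouse 4 (-0.46, adjusted p = 0.0509), and without wild-type mice 2 and 3 (-0.53, adjusted p = 0.0749). Its sign held in all 16 alternatives, with differences of -0.63 to -0.37.

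Dgat1 read -0.09, -0.14, -0.16 and -0.09 in mutants and 0.09, 0.06, 0.16 and 0.11 in wild type. The groups were narrow and did not overlap. The difference of -0.22 ± 0.09 was small and did not pass (limma, adjusted p = 0.125), and it was -0.10 with the values as deposited. Within arrays, where the scaling cancels, Dgat1 minus Dgat2 averaged 0.15 ± 0.09 in mutants and -0.11 ± 0.06 in wild type (SD, n = 4 each), a difference of 0.26. Permuting the mice exactly, two-sided, gave p = 0.0286, the lowest value possible with 4 against 4, and 0.0571 after adjustment over the 4 family pairs tested.

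**Figure D3:**
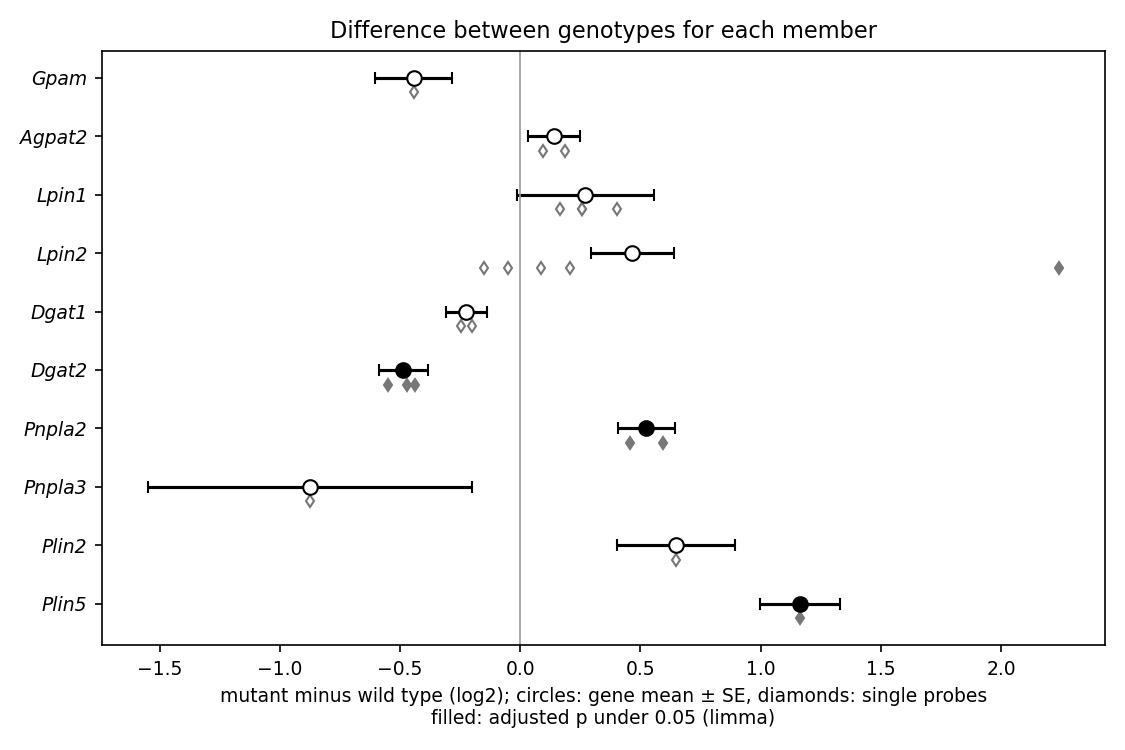
Mutant minus wild-type difference of each member on the log2 scale, with circles for gene means ± standard error and diamonds for single probes, filled where the adjusted p is under 0.05. Plin5 at 1.16 and Dgat2 at -0.49 mark the ends of the range of calls, and the far diamond at 2.24 is the single Lpin2 probe.

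Pnpla2 encodes adipose triglyceride lipase, which removes the first fatty acid from stored triglyceride and is known to feed hepatic fatty acid oxidation in fasting. It read 0.37, 0.39, 0.14 and 0.11 in mutants and -0.44, -0.31, -0.22 and -0.13 in wild type. All 4 mutants lay above all 4 wild-type mice, and Pnpla2 rose by 0.52 ± 0.12 (1.44-fold, limma adjusted p = 0.0235). Both probes passed alone, at 0.46 and 0.59 (limma per probe, adjusted p = 0.0426 and 0.0129). The size of the difference was steady, at 0.47 to 0.64 over 16 alternatives, but the call was close to the threshold. It was lost when any 1 of mutant mice 1 and 2 or wild-type mice 1, 2 and 3 was left out (adjusted p = 0.0529 to 0.0652), and without wild-type mice 2 and 3 together (0.54, adjusted p = 0.116).

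Pnpla3, a paralog of Pnpla2 known for its strong response to insulin and feeding, split the mice of both genotypes. It read -0.97, 1.51, -1.01 and -0.92 in mutants and -0.80, 0.96, 0.90 and 1.06 in wild type. Mutant mouse 2 stood with the high wild-type mice, and wild-type mouse 1 stood with the low mutants. No mouse read between -0.80 and 0.90. Pnpla3 was measured by 1 probe, so no second probe could be set beside this split. The difference of -0.88 ± 0.67 did not pass (limma, adjusted p = 0.36), and it was -1.50 without mutant mouse 2 and -1.32 without wild-type mouse 1 (adjusted p = 0.0920 and 0.154). Without wild-type mice 2 and 3 it was -0.48 (adjusted p = 0.818). Pnpla2 minus Pnpla3 within arrays averaged 0.60 ± 1.16 in mutants and -0.80 ± 0.78 in wild type (SD, n = 4 each), and the difference of 1.40 did not pass (exact two-sided permutation p = 0.0857, adjusted 0.114).

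Plin5 encodes the perilipin that coats droplets in oxidative tissues, binds the lipase of Pnpla2 and is known to tether droplets to mitochondria. It read 0.94, 0.50, 0.37 and 0.53 in mutants and -0.54, -0.50, -0.89 and -0.40 in wild type. The groups lay well apart, and Plin5 rose by 1.16 ± 0.17 (2.24-fold, limma adjusted p = 0.00397), the highest rise among the members. It passed in all 16 alternatives, with differences of 1.04 to 1.28 and adjusted p of 0.00287 to 0.0346, and it rested on 1 probe.

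Plin2, the perilipin best known from fatty liver, read 1.16, 0.65, 0.61 and -0.09 in mutants and -0.04, -0.20, -0.09 and 0.07 in wild type. Mutant mice 1 to 3 lay above every wild-type mouse and mutant mouse 4 lay among them. The difference of 0.65 ± 0.25 did not pass (limma, adjusted p = 0.121), while without mutant mouse 4 it was 0.87 ± 0.17 and passed (adjusted p = 0.0212). Without mutant mouse 1 it was 0.46 ± 0.20 and did not pass (limma, adjusted p = 0.206). Plin2 passed in 1 of 16 alternatives. Plin2 minus Plin5 within arrays averaged -0.00070 ± 0.41 in mutants and 0.51 ± 0.21 in wild type (SD, n = 4 each). The difference of -0.52 had an exact two-sided permutation p of 0.0286, the lowest possible, and an adjusted p of 0.0571. None of the 4 family pairs passed after adjustment. With this number of mice a pair could pass only if most of the 4 pairs reached the lowest p. The adjusted result therefore does not decide whether a pair differed. Lpin1 minus Lpin2 differed by -0.20 (exact p = 0.486).

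The promoters of the pair of members that rose are shown side by side, since their proteins bind each other. For Pnpla2 it is chr7:141454938-141455187 on the plus strand, 63.2% G and C. For Plin5 it is the part of the upstream window that lies outside the annotated gene, chr17:56117607-56117798 on the minus strand, 55.2% G and C. Both are from RefSeq on GRCm38.p6, and no capitals are used because none of the motifs named above was found.
Pnpla2: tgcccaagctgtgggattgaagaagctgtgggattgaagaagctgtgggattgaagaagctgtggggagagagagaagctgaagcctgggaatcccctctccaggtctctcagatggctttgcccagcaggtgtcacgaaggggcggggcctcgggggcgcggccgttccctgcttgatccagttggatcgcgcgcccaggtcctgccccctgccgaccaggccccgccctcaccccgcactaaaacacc
Plin5: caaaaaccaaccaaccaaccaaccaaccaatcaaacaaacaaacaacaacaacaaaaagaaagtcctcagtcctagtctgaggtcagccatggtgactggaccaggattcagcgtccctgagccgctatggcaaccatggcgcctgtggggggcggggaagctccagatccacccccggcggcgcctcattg
The median promoter in the table held 52.4% G and C over 250 bases.

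**Figure D4:**
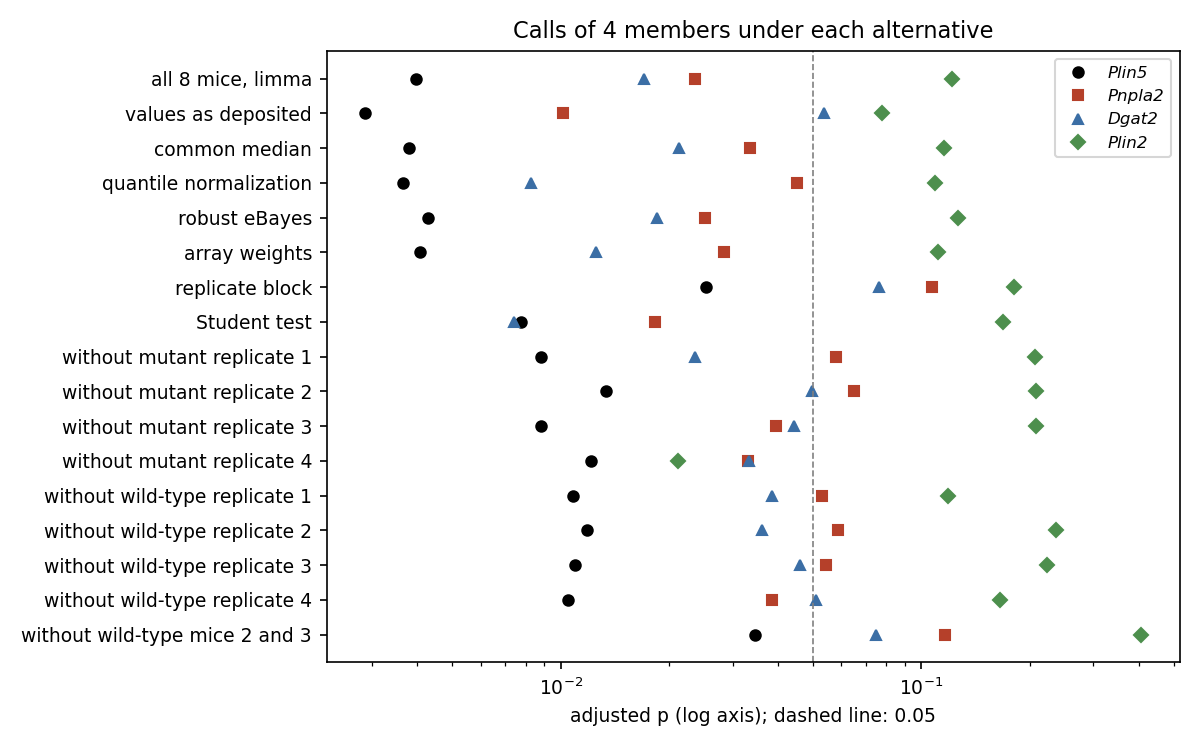
Adjusted p of Plin5, Pnpla2, Dgat2 and Plin2 (log axis) under the limma fit to all 8 mice and under 16 alternatives, with a dashed line at 0.05. Plin5 lies left of the line throughout, Pnpla2 and Dgat2 cross it when single mice are left out, and Plin2 crosses it without mutant replicate 4.

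By the root-mean-square difference over the 8 arrays, the named genes closest to Plin5 were Icam5, Iqub and 1700006A11Rik, at 0.109, 0.135 and 0.139 log2 units. Icam5, an adhesion molecule gene known from neurons, differed by 1.31 ± 0.18 (limma, adjusted p = 0.00342). The closest to Dgat2 were Dgcr6, Psma1, a proteasome subunit gene, and Acot7, an acyl-CoA thioesterase gene, at 0.0376, 0.0414 and 0.0440 log2 units. Acot7 fell by 0.46 ± 0.10 (limma, adjusted p = 0.0168) and lost its call with the values as deposited and without wild-type mice 2 and 3 (adjusted p = 0.0527 and 0.0897). Dgcr6, which did not pass without wild-type mice 2 and 3 (adjusted p = 0.0557), fell by 0.52 ± 0.10 and Psma1 by 0.45 ± 0.11 (limma, adjusted p = 0.0114 and 0.0262), and the call of Psma1 was lost with the values as deposited (adjusted p = 0.0775), without wild-type mice 2 and 3 (adjusted p = 0.113) and without any 1 of mutant mice 2 to 4 or wild-type mice 1, 3 and 4. The measure follows the split by genotype and says nothing of shared function or control.

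The wider pathway was described with 7 lists of related genes, in which 83 of 87 listed genes were measured. Of these, 5 rose and 18 fell, and 60 did not pass, so that 27.7% passed against 17.6% of all named genes. Among named genes 7.13% were higher and 10.5% lower, the background for the counts of each list below. With the values as deposited, 8 rose and 13 fell. The median difference of the 83 genes was -0.17, against 0.0088 over named genes and 0.08 over all rows. Without wild-type mice 2 and 3 the count fell to 11, and without wild-type mouse 3 alone to 15. Calls over all rows fell as well, from 4333 with all mice to 2884 without wild-type mouse 3.

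Of 6 measured genes that supply glycerol phosphate, 2 fell and 0 rose. Gpd1l, a cytosolic glycerol-3-phosphate dehydrogenase gene, fell by 0.48 ± 0.09 (limma, adjusted p = 0.0114), with -0.34 to -0.20 in mutants and 0.17 to 0.30 in wild type. It did not pass without wild-type mice 2 and 3 (-0.44, adjusted p = 0.0749). Aqp9, the glycerol channel of hepatocytes, fell by 0.65 ± 0.15 (limma, adjusted p = 0.0261), and its call was lost without any 1 of mutant mice 1 and 4 or wild-type mice 1, 2 and 3. It was also lost with the values as deposited (-0.53, adjusted p = 0.0514) and without wild-type mice 2 and 3 together (adjusted p = 0.167). Of 11 genes of fatty acid uptake and activation, 2 fell and 0 rose, a share close to the 17.6% of all named genes that passed. Cd36, a fatty acid transporter gene, read -1.10 to -0.58 in mutants and 0.57 to 1.54 in wild type and fell 3.85-fold (-1.95 ± 0.25, limma adjusted p = 0.00283). Acsl5, an acyl-CoA synthetase gene, fell by 0.54 ± 0.12 (limma, adjusted p = 0.0194), a call lost without mutant mouse 2 or 3 or wild-type mouse 3. It was also lost with the values as deposited (-0.42, adjusted p = 0.0559) and without wild-type mice 2 and 3 together (adjusted p = 0.107).

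Of 16 other acyltransferase and phosphatase genes, 2 rose and 3 fell. Lpin3, the third lipin gene, read -0.57, -0.50, -0.39 and -0.72 in mutants and 0.36, 0.44, 0.47 and 0.49 in wild type. It fell by 0.98 ± 0.11 (1.98-fold, limma adjusted p = 0.00144) and, with its groups well apart, stood beside Lpin1 and Lpin2, which did not pass. Plpp3, a lipid phosphate phosphatase gene, fell by 0.66 ± 0.10 (limma, adjusted p = 0.00499).

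Of 14 other lipase genes and regulators, 2 rose and 1 fell. Hilpda, a droplet protein known to inhibit the lipase of Pnpla2, read 1.04, 0.68, 0.23 and 0.18 in mutants and -0.45, -0.42, -0.49 and -0.20 in wild type. It rose by 0.92 ± 0.20 (1.9-fold, limma adjusted p = 0.0216), and its call was lost without mutant mouse 2 or wild-type mouse 2 or 3, and without the last 2 together (adjusted p = 0.149). The calls of the phospholipase gene Ddhd2 (0.50 ± 0.13) and of the esterase gene Aadac (-0.46 ± 0.11) were lost when single mice were left out, for Ddhd2 any 1 of all but mutant mouse 4 and for Aadac any 1 of mutant mice 1 to 3 or wild-type mice 3 and 4. Without wild-type mice 2 and 3 both were lost (adjusted p = 0.154 for Ddhd2 and 0.0856 for Aadac). Aadac was also lost with the values as deposited (-0.34, adjusted p = 0.0879), and Ddhd2 with quantile normalization (0.48, adjusted p = 0.0650). Pnpla7, a lysophospholipase gene, did not pass (-0.45 ± 0.14, limma adjusted p = 0.0740). Abhd5 and G0s2, the known activator and inhibitor of the lipase of Pnpla2, differed by 0.01 ± 0.10 and -0.33 ± 0.29 and did not pass, named after their values were seen.

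Of 17 other droplet genes, 5 fell and 0 rose. Hilpda, counted with the lipase genes, and the member Plin5 also encode droplet proteins, and both rose. Cideb, known for its part in loading very low density lipoprotein with lipid, read -0.37 to -0.21 in mutants and 0.21 to 0.39 in wild type and fell by 0.61 ± 0.09 (limma, adjusted p = 0.0054). Plin3, a perilipin expressed in most tissues, fell by 0.57 ± 0.09, and Hsd17b13, a hepatocyte droplet protein gene, fell by 0.62 ± 0.11 (limma, adjusted p = 0.00638 and 0.0100). The falls of Plin3 and Hsd17b13 did not pass without wild-type mice 2 and 3 (adjusted p = 0.0526 and 0.0824). Of the perilipin genes, Plin5 was thus higher and Plin3 lower in the mutants, while Plin1, Plin2 and Plin4 did not pass (limma, adjusted p = 0.196, 0.121 and 0.978). Plin1 and Plin4 are named after their values were seen.

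Fitm1, a droplet formation gene known mainly from muscle, read -1.33 to -0.44 in mutants and 0.43 to 0.89 in wild type and fell by 1.63 ± 0.23 (3.11-fold, limma adjusted p = 0.00367). Beside it, the mean over 8 skeletal muscle genes was -2.69, -3.28, -1.14 and 0.41 in mutants and -0.28, 2.06, 0.49 and 2.48 in wild type, where 0 of 8 passed by limma (8 of 8 at an unadjusted p under 0.05, and 0 of 8 with robust variance or array weights). Of the 4 mutants, 3 had a lower muscle mean than any wild-type mouse, and mutant mouse 4, at 0.41, did not. Plin5 was higher in all 4 mutants. The part of muscle transcripts in the values of Fitm1 and of Plin5, which muscle also expresses, was not tested.

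Of 6 genes of lipoprotein lipidation none passed (limma), with 2 at an unadjusted p under 0.05, 0 with robust variance and 1 with array weights. The genes at an unadjusted p under 0.05 were Sar1b, a coat GTPase gene (-0.31 ± 0.09, adjusted p = 0.0577), and Tm6sf2, a lipid loading gene (-0.52 ± 0.19, adjusted p = 0.106). Tm6sf2 was the gene that passed with array weights (adjusted p = 0.0481), and Sar1b passed with quantile normalization (-0.39, adjusted p = 0.0382). Of 13 regulators, 1 rose and 5 fell. Insig2, which holds back the SREBP factors and whose liver form is known to rise in fasting, read 0.55 to 1.35 in mutants and -0.93 to -0.56 in wild type and rose 3.54-fold (1.83 ± 0.20, limma adjusted p = 0.00144). Pparg, which drives fat storage genes, fell by 1.31 ± 0.14 (2.48-fold, limma adjusted p = 0.00145).

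**Figure D5:**
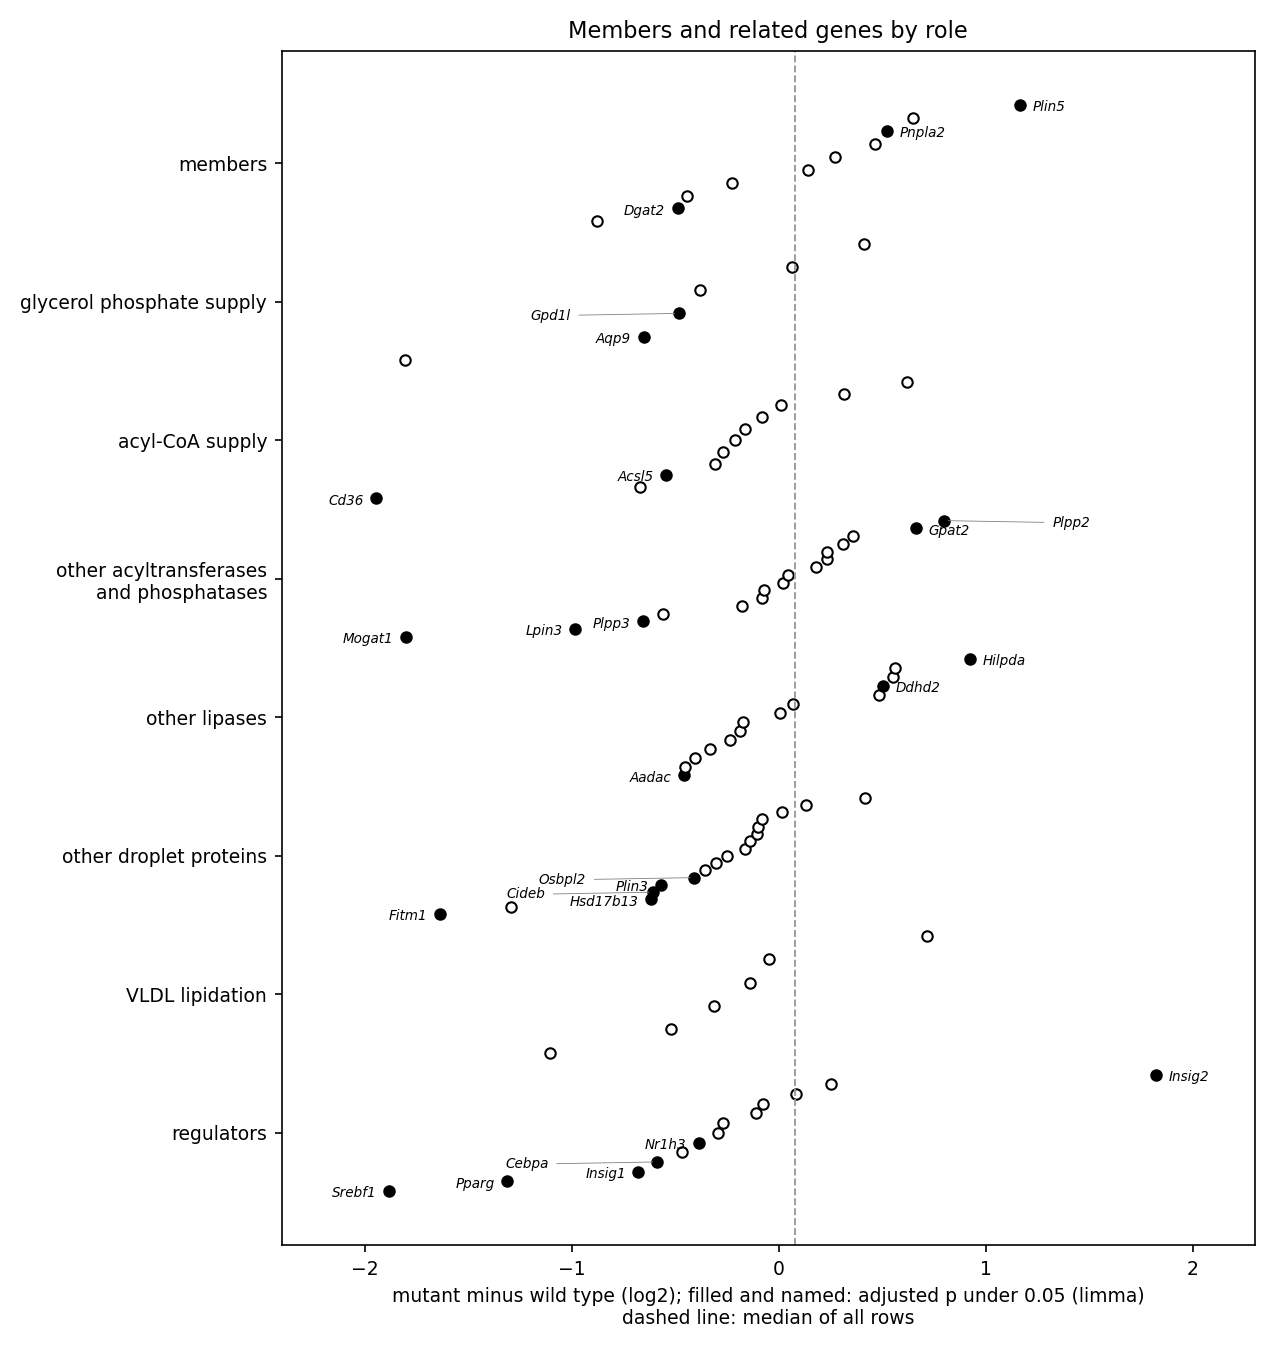
Mutant minus wild-type difference (log2) of the members and of 7 lists of related genes, one point per gene, filled and named where the adjusted p is under 0.05; the dashed line is the median of all rows, 0.08. In the droplet, acyl-CoA and glycerol phosphate lists the filled points, 5, 2 and 2, lie below 0. Hilpda and Plin5, which also encode droplet proteins, stand in other lists and lie above 0.

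Markers of the cells that liver samples can hold moved with genotype for some types. Of 8 measured hepatocyte markers 0 rose and 1 fell, Ttr (-0.71 ± 0.11), and the list mean was -0.13 to 0.10 in mutants and -0.06 to 0.05 in wild type. Of 10 adipocyte markers 1 passed, Pparg, and the list mean was -1.10 to 0.09 in mutants and -0.16 to 1.03 in wild type. Of 10 Kupffer cell markers 9 rose, and the list mean was 0.46 to 0.78 in mutants and -0.79 to -0.31 in wild type. Of 9 stellate cell markers, cells that also store lipid and express Plin2, 2 rose and 1 fell, with list means of -0.00248 to 0.33 in mutants and -0.19 to 0.14 in wild type. With no levels in the table, whether any defining marker was near 0 could not be read, and the part of these cells in the members' differences was not tested.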

How the data were processed

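Liver RNA of 8 mice was hybridised to 1-colour Agilent arrays labelled with cyanine 3, 1 array per mouse, per the labels. The authors deposited a table of values for 41252 probes, read here as log2. Its normalization is not given in the sources used here. Each probe has a median of 0 over the 8 arrays. The log base, scaling and direction are not stated: values reach a range that fits base 2, which was used. Probe symbols came from the platform annotation.

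After 78 control features were set aside, each array was shifted to a common 75th percentile, by -0.09 to -0.01 in mutants and 0.05 to 0.07 in wild type. Probes of a gene were averaged, which gave 28042 rows. The fit used lmFit and eBayes of limma 3.58.1, run in R 4.3.3 with two-sided p-values, after the procedure had been tested on simulated data, and adjusted by Benjamini-Hochberg over all rows. Family pairs were compared within arrays with an exact permutation test over 70 arrangements. Promoters were read with Python 3.11.15 and pandas 2.3.3, and figures drawn with matplotlib 3.10.9. Whether the mice were handled in batches is not given in the sources used here, and precision is limited by the number of arrays.

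The members, lists and tests were chosen with earlier results of these data known. Named were all members, Per2, the 2 related genes of smallest p in each list (4 for the lipase and droplet lists) and the 3 profiles nearest to the passing member with the largest rise and to that with the largest fall. Listed genes with no matching probe were not analysed here. Alternatives were other scalings, robust variance, array weights, a Student test, single probes, a replicate block and left-out mice.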

Additional observations from a re-analysis of the deposited data

Results flagged for a closer look

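In 5 of 68 groups of 4 mice, over 34 named genes, 1 mouse stood apart from the other 3 by more than Dixon's critical value for the gap over the range. Chance gives such a mouse in about 1 of 20 groups. Pnpla3 had a mouse apart in both genotypes. Mutant mouse 2 read 1.51, where the other mutants read -1.01 to -0.92. Wild-type mouse 1 read -0.80, where the other wild-type mice read 0.90 to 1.06. For Gpam, wild-type mouse 3 read 0.38, and the other wild-type mice 0.06 to 0.11. For Ddhd2, wild-type mouse 3 read -0.077, and the others -0.21 to -0.20. For Sar1b, mutant mouse 4 read -0.29, and the other mutants -0.14 to -0.12.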

How the results depend on the processing

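Over 45 results there were 718 comparisons with an alternative, of which 608 kept the direction and the side of the threshold, or a count or value close to the reported one. Genes lost a call in 68 comparisons and gained one in 6, 29 counts moved and 2 values reversed. The unadjusted p of a family pair, none of which passed after adjustment, moved above 0.05 in 4 and below it in 1. Plin5, Cd36, Lpin3, Plpp3, Fitm1, Cideb, Insig2 and Pparg passed in each of 16 alternatives. Dgat1 and Sar1b passed by a Student test per gene, which rests on the spread of 4 mice in each group. The replicate numbers did not pair the mice, with correlations of same-numbered deviations of -0.10 to 0.10 and 2 of 4 mutants closest to their own number. With a replicate block 1 member passed, 11 related genes and 2 member probes, against 3, 23 and 7 without it. Over all rows, 2030 passed with the block and 4333 without it. The block ended the calls of 13 named genes, Dgat2, Pnpla2, Gpd1l, Aqp9, Acsl5, Aadac, Ddhd2, Hilpda, Plin3, Hsd17b13, Dgcr6, Psma1 and Acot7 (limma, adjusted p = 0.0580 to 0.107). Without wild-type mice 2 and 3 the counts were 1, 11 and 1. Leaving out 1 mouse gave 2 to 4 members, 15 to 21 related genes and 4 to 7 member probes, the lowest of the last without mutant mouse 2 or wild-type mouse 4. Calls over all rows fell as well, for example to 2884 without wild-type mouse 3 and to 3696 without wild-type mouse 1. For family pairs, Plin2 minus Plin5 was -0.51 with quantile normalization (exact permutation p = 0.114), -0.52 with the block (p = 0.125, the smallest that 4 blocked pairs allow, so that this test could not pass) and -0.60 to -0.31 without 1 mouse. Dgat1 minus Dgat2 was 0.26 with the block (exact permutation p = 0.125, the same limit), 0.19 for the lowest pair of probes (p = 0.0571) and 0.23 to 0.30 without 1 mouse. Lpin1 minus Lpin2 was -2.07 to 0.55 over pairs of probes (exact permutation p = 0.0286 and 0.2) and turned to 0.25 with 4 Lpin2 probes, added after seeing the data (p = 0.371). The causes were not tested. A filter on dim probes was not run, as the values hold no levels, and signal over background is unknown.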

Other observations

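Further related genes that passed are named here after their values were seen. The alternatives were not examined for each of these genes, so how far their calls depend on single mice or on the scaling was not tested. Mogat1, which encodes a monoacylglycerol acyltransferase, read -0.41, -0.97, -1.03 and -1.04 in mutants and 1.22, 1.6, 0.39 and 0.53 in wild type, and fell by 1.80 ± 0.30 (limma, adjusted p = 0.0069). The groups did not overlap. Gpat2, a mitochondrial acyltransferase gene related to Gpam, rose by 0.66 ± 0.12 and the lipid phosphatase gene Plpp2 by 0.80 ± 0.12 (limma, adjusted p = 0.0112 and 0.00554), so that Plpp2 was higher and Plpp3 lower in the mutants. Insig1 fell by 0.68 ± 0.16 (limma, adjusted p = 0.0285), against the rise of Insig2. Among regulators, Srebf1 fell by 1.88 ± 0.20, Cebpa by 0.59 ± 0.13 and Nr1h3 by 0.38 ± 0.10 (limma, adjusted p = 0.00146, 0.0186 and 0.0407). Osbpl2 of the droplet list fell by 0.41 ± 0.09 (limma, adjusted p = 0.0224).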
